A study of Homo sapiens with 9 samples.

Results

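DEPTOR, the mTOR kinase with its 2 large scaffold proteins RPTOR and RICTOR, the upstream regulators TSC1, TSC2 and RHEB, and the kinase STK11, better known as LKB1, with the scaffold proteins CAB39 and CAB39L were followed in stimulated BL2 cells. Every probe set whose platform annotation names exactly 1 gene, that gene being one of these 10, was taken. This gave 29 of the 54613 probe sets analysed, and 10 of the 19775 genes that a single-gene probe set names. BL2 is an established human line derived from a Burkitt lymphoma, a tumour of germinal centre B cells. The cells were stimulated for 6 hrs with 200 ng/ml recombinant human CD40L, the T cell ligand of the B cell receptor CD40, stimulated for 6 hrs with 1 μM LPS, a glycolipid of bacterial outer membranes, or left untreated (control). Each of 3 independent experiments, here called batches, gave 1 HG-U133 Plus 2.0 array per condition, 9 arrays in all (n = 3 arrays per condition). All arrays come from 1 cell line, so p-values measure the spread between cultures of that line.

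mTOR is a kinase that couples growth factors and nutrients to cell growth, and it works in a pair of complexes. RPTOR recruits substrates to mTORC1, which promotes protein synthesis and restrains autophagy, and RICTOR defines mTORC2, which phosphorylates AKT and SGK1. DEPTOR binds the kinase in both complexes and inhibits it. The TSC1 and TSC2 proteins form a complex that switches off the small GTPase RHEB, which activates mTORC1 at the lysosome. LKB1 is held in an active complex by a STRAD pseudokinase together with the scaffold MO25, which CAB39 (MO25 alpha) or its paralogue CAB39L (MO25 beta) encodes. LKB1 activates AMPK, which in turn restrains mTORC1. In germinal centre B cells, PI3K downstream of the antigen receptor is one input to this network. For BL2 cells the paper reports PI3K signalling after antigen receptor stimulation and not after its other stimuli, CD40L and LPS among them.

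Levels are given on the deposited generalised log2 scale, on which array medians lay between 6.42 and 6.47 and values between 5.46 and 14.8. The scale is flatter for dim probe sets, so their differences understate fold changes. A probe set was called dim where its mean was under 7 in all 3 conditions, which held for 10 of the 29 probe sets. Replicate arrays of a condition correlated at 0.994 to 0.997 across probe sets. Of 8 B cell and germinal centre markers, 7 were measured, with levels of 8.59 to 13.1 on single arrays, while the 6 T and NK cell markers and the 4 monocyte markers lay between 6.04 and 6.73. Of 4 fibroblast markers, 1 (COL1A1) reached a level of 7. Differences between conditions were tested with limma, the Benjamini-Hochberg adjustment covered the full 54613 probe sets, and an adjusted p of at most 0.05 is termed a call. The summed level of the 7 B cell markers was 73.0 to 73.3 on CD40L arrays, 73.6 to 74.2 on LPS arrays and 74.7 to 75.5 on control arrays, and its part in the results was not tested. The markers did not move as 1. CD79A, CD79B, CD22, MME and BCL6 were called lower after CD40L, and CD79A, MME and BCL6 after LPS. PAX5 changed by 0.39 and 0.31 and MS4A1 by −0.04 and −0.07 after CD40L and LPS, without a call. On bulk arrays, fewer cells with a transcript and less transcript per cell cannot be told apart.

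The promoter sequences of the MO25 paralogues are shown because the paralogues encode the same part of the LKB1 complex and their levels, given further on, ran differently. That difference between the paralogues was not tested. Each window of 300 bases covers the start of the RefSeq gene on GRCh38.p14 and is given in the direction of the gene. That of CAB39L lies at chr13:49401493-49401792 on the minus strand, and that of CAB39, the first of 2 start sites listed, at chr2:230712592-230712891 on the plus strand. Capitals mark matches to the forkhead core TGTTTA on either strand.
CAB39L: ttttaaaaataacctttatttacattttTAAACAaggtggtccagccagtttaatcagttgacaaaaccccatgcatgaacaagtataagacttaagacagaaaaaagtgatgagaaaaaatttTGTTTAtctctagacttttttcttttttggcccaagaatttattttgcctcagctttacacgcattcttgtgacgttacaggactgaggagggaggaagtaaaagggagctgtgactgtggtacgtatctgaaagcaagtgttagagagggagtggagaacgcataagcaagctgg
CAB39: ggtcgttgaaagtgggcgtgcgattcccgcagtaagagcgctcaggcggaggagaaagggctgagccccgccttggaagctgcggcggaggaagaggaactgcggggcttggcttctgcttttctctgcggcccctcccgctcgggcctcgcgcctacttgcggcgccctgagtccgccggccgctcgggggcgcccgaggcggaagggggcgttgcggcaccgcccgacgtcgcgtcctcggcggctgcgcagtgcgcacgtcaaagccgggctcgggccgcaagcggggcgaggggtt
The CAB39L window had a GC content of 37.7% and 4 CpG dinucleotides, and the CAB39 window had 72.3% and 41 CpG dinucleotides. The median over all 35116 promoter windows of this length was 58.7% GC and 14 CpG dinucleotides. The CAB39L window held 2 forkhead core matches and the 2 CAB39 windows 0, against at least 1 match in 12.3% of all windows. That share was not matched for GC content. Among the windows of the other members, that of STK11 held 1 forkhead core match. The E-box CACGTG, found in 7.26% of all windows on searching both strands, was in none of the CAB39L and CAB39 windows. The first of the 2 TSC2 windows held 1 E-box match. These motifs were picked after the values had been seen, the matches describe letters only, and no match says nothing about a factor. Windows were matched for 9 of the 10 genes, all but DEPTOR, so nothing is said here of the DEPTOR promoter.

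DEPTOR was lower after both stimuli, more so after CD40L. The bright DEPTOR probe set 218858_at had levels of 8.73, 8.95 and 8.61 on CD40L arrays, of 9.47, 9.38 and 9.48 on LPS arrays and of 9.86, 9.99 and 9.92 on control arrays. The 3 conditions did not overlap, with CD40L lowest, LPS between and control highest in each batch. DEPTOR and CAB39L had been picked for their low values after CD40L, so CD40L values of both are a description with no test. The log2 fold change of DEPTOR, CD40L minus control, was −1.16 ± 0.07 (SE), a level 2.23-fold lower, and the 3 batches gave −1.13, −1.04 and −1.30. After LPS it was −0.48 ± 0.07 (limma adjusted p = 1.9e-03), 1.39-fold lower, with −0.39, −0.61 and −0.44 in the batches. The LPS contrast uses the same control arrays as the one DEPTOR was picked from, so its p-value is not independent of that choice. In each of 20 alternative settings DEPTOR stayed lower after LPS, with adjusted p between 1.2e-04 and 0.0421. Set directly against LPS, the CD40L level of DEPTOR differed by −0.68 ± 0.07 and was lower in every batch. The second DEPTOR probe set, 234071_at, was dim at 5.97 to 6.06 on all 9 arrays and differed by −0.01 after CD40L and by −0.01 after LPS, and it is so dim that a change could be hidden.

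CAB39L was lower on all 3 of its probe sets after both stimuli. The brightest, 225914_s_at, had levels of 8.13, 8.23 and 8.31 on CD40L arrays, of 8.46, 8.47 and 8.60 on LPS arrays and of 9.30, 9.40 and 9.24 on control arrays. Probe set 225915_at had 7.47, 7.69 and 7.66 on CD40L arrays, 8.02, 8.02 and 8.12 on LPS arrays and 8.58, 8.75 and 8.48 on control arrays. For 221003_s_at the levels were 7.39, 7.16 and 7.21 on CD40L arrays, 7.46, 7.54 and 7.41 on LPS arrays and 8.0, 8.0 and 7.97 on control arrays. On none of the 3 probe sets did a CD40L array overlap an LPS array or an LPS array a control array. The suffix _s_at marks a probe set that may match more than 1 transcript, and 225915_at carries no such mark. The log2 fold changes of CD40L minus control were −1.09 ± 0.06, −0.99 ± 0.07 and −0.74 ± 0.06 in this order. For LPS minus control they were −0.80 ± 0.06 (limma adjusted p = 1.7e-05), −0.55 ± 0.07 (4.2e-04) and −0.52 ± 0.06 (3.6e-04), with the same limit from the shared control arrays. The study, from the same arrays, had also listed CAB39L among the genes most changed by LPS. These p-values are therefore no independent test of CAB39L. All 3 probe sets stayed lower after LPS in each of the 20 alternatives, which use the same arrays. Set against LPS, the CD40L values of CAB39L differed by −0.29, −0.44 and −0.22, smaller steps than that of DEPTOR at −0.68, and this ordering of the genes was not tested.

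**Figure D1:**
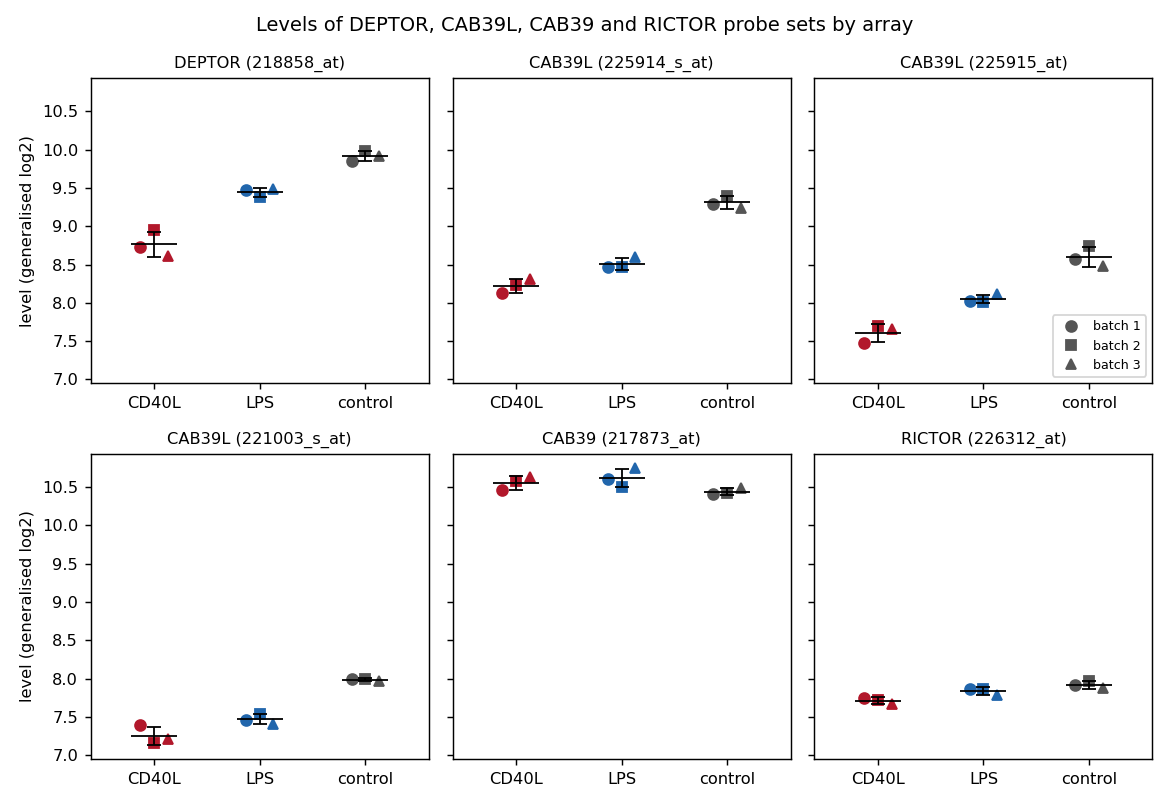
Level on the generalised log2 scale of 6 probe sets, 1 panel each, on CD40L, LPS and control arrays, with 1 symbol for each batch and black bars for the mean ± SD (n = 3 arrays). DEPTOR and the CAB39L probe sets step up through CD40L, LPS and control without overlap, CAB39 stays between 10.4 and 10.75, and RICTOR spans 7.67 to 7.97.

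CAB39, the paralogue that encodes the other MO25 protein, was brighter on the arrays and did not pass the test. Its probe set 217873_at had 10.46, 10.58 and 10.63 on CD40L arrays, 10.60, 10.51 and 10.75 on LPS arrays and 10.40, 10.43 and 10.49 on control arrays. All LPS arrays lay above all control arrays, while CD40L and control arrays overlapped. The log2 fold change was 0.12 (95% interval −0.01 to 0.24, adjusted p = 0.38) after CD40L and 0.18 (0.05 to 0.31, adjusted p = 0.18) after LPS. The second probe set, 224311_s_at, had 9.42, 9.38 and 8.99 on CD40L arrays, 9.52, 9.50 and 9.03 on LPS arrays and 9.21, 8.82 and 9.02 on control arrays. The stimulated arrays of batches 1 and 2 were higher than all control arrays, and those of batch 3 were level with their control. It changed by 0.25 after CD40L (adjusted p = 0.16) and by 0.33 after LPS (adjusted p = 0.084). Without control replicate 3 the values were 0.40 (adjusted p = 8.6e-03) and 0.48 (adjusted p = 6.5e-03), and with quantile normalization LPS gave 0.30 (adjusted p = 0.047). Without control replicate 2 they were 0.084 (adjusted p = 0.71) and 0.17 (adjusted p = 0.34). The intervals of CAB39 after LPS lay above 0 and those of CAB39L below it. These intervals are not adjusted for the number of probe sets, and CAB39 gave no call. The difference between the paralogues was not tested, and CAB39L had been picked using the same control arrays.

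STK11, the LKB1 kinase itself, had levels of 7.23 to 8.66 over its 3 probe sets. Neither stimulus moved a probe set of STK11 past the threshold. The log2 fold changes after CD40L were 0.13 (−0.02 to 0.28) for 41657_at, −0.02 (−0.15 to 0.11) for 231017_at and −0.02 (−0.15 to 0.12) for 204292_x_at. After LPS they were 0.05 (−0.10 to 0.20), −0.17 (−0.30 to −0.03, adjusted p = 0.25) and −0.08 (−0.22 to 0.05). The STK11 probe sets did not share a direction after CD40L, and their levels overlapped between all conditions.

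Of the core mTOR subunits, RICTOR had the only call and a weak one. Probe set 226312_at had 7.75, 7.72 and 7.67 on CD40L arrays, 7.87, 7.86 and 7.78 on LPS arrays and 7.91, 7.97 and 7.87 on control arrays. The CD40L arrays lay below all others. RICTOR fell by 0.20 ± 0.05 (SE) after CD40L on the log2 scale (limma adjusted p = 0.037), and it differed by −0.08 (−0.20 to 0.04, adjusted p = 0.68) after LPS. The RICTOR call after CD40L was lost in 15 of 20 alternatives, among them the removal of any 1 of the 9 arrays, where the change lay between −0.22 and −0.19. Over the 20 alternatives its adjusted p ran from 9.9e-03 to 0.18. A second RICTOR probe set, 228248_at, had 7.40, 7.29 and 7.15 on CD40L arrays and 7.51, 7.36 and 7.55 on control arrays, which overlapped, and changed by −0.19 (adjusted p = 0.12). It passed the threshold with quantile normalization (−0.22) and without batch 2 (−0.25), while it was −0.10 (adjusted p = 0.52) without CD40L replicate 3 and −0.12 (adjusted p = 0.46) without control replicate 3. The RICTOR probe sets 226310_at and 1552734_at were dim, at 5.95 to 6.90.

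MTOR, the kinase, and RPTOR, the mTORC1 scaffold, did not pass the test after either stimulus. MTOR probe set 202288_at had 7.44, 7.28 and 7.37 on CD40L arrays, 7.20, 7.39 and 7.34 on LPS arrays and 7.43, 7.39 and 7.48 on control arrays, all overlapping. Its change was −0.07 (−0.21 to 0.07, adjusted p = 0.72) after CD40L and −0.12 (−0.26 to 0.02, adjusted p = 0.52) after LPS, and the other MTOR probe set, 215381_at, was dim. The single RPTOR probe set, 225715_at, lay between 7.73 and 8.11 over all 9 arrays. It changed by −0.08 (−0.22 to 0.06, adjusted p = 0.67) after CD40L and by −0.10 (−0.24 to 0.04, adjusted p = 0.64) after LPS.

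TSC1 and TSC2, the brake on RHEB, gave no call. TSC1 probe set 209390_at had 7.73, 7.76 and 7.79 on CD40L arrays, 7.80, 7.87 and 7.81 on LPS arrays and 7.94, 7.85 and 8.02 on control arrays. The CD40L arrays lay under all control arrays, and 2 of the 3 LPS arrays did. The change in TSC1 was −0.18 (−0.30 to −0.05, adjusted p = 0.10) after CD40L and −0.11 (−0.24 to 0.01, adjusted p = 0.52) after LPS. TSC1 passed the threshold after CD40L with quantile normalization (−0.23) and without control replicate 2 (−0.23, adjusted p = 0.036). TSC2 probe set 215735_s_at varied more among control arrays, at 8.52, 7.94 and 8.20, than between conditions, with changes of −0.03 after CD40L and −0.10 after LPS. Without control replicate 2, the LPS value of TSC2 was −0.25 (adjusted p = 0.034), and without batch 2 it was −0.27 (adjusted p = 0.031). Without control replicate 1 it was −0.01 (adjusted p = 0.98). TSC2 probe set 215624_at was dim.

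RHEB, the activator of mTORC1, had 9 probe sets, of which 5 were dim. The brightest, 201453_x_at, lay between 11.1 and 11.28 on all arrays and changed by 0.05 (−0.08 to 0.18) after CD40L and by 0.05 (−0.08 to 0.18) after LPS. Its suffix _x_at marks probes that can bind other transcripts. Probe set 1555780_a_at had 10.36, 10.33 and 9.83 on CD40L arrays, 10.38, 10.29 and 9.78 on LPS arrays and 10.23, 9.83 and 9.78 on control arrays. Its values moved more between batches, by 0.53 between the batch means, than between conditions, by 0.22. It changed by 0.22 after CD40L (adjusted p = 0.12) and by 0.20 after LPS (adjusted p = 0.27), and without control replicate 3 it passed the threshold after CD40L at 0.32 (adjusted p = 0.030). Without control replicate 2 the CD40L value was 0.094 (adjusted p = 0.62) and the LPS value 0.072 (adjusted p = 0.85). The RHEB probe sets 213404_s_at and 227633_at changed by 0.18 and 0.07 after CD40L and by 0.23 and 0.06 after LPS, and gave no call.

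Counted over all 29 probe sets, 5 were called lower and 0 higher after CD40L, where 1.87% of all probe sets were lower and 3.71% higher. After LPS, 4 were lower and 0 higher, where 0.892% of all were lower and 1.17% higher. The called probe sets belong to CAB39L (3), DEPTOR (1) and, after CD40L, RICTOR (1). Since DEPTOR and CAB39L were picked for their CD40L values, nothing is read from these counts, and the LPS count shares the control arrays. Without DEPTOR and CAB39L, 24 probe sets remained, of which 1 was called after CD40L (4.17%, against 5.58% of all in either direction) and 0 after LPS (against 2.06%). At an unadjusted p under 0.05 there were 5 of the 24 for CD40L and 5 for LPS (20.8% each), against 15.7% and 11.6% of all probe sets. The median change of the 24 was −0.02 after both stimuli, against 0.00 over all probe sets. Directly between the stimuli, CD40L minus LPS, limma placed 2 probe sets lower, 218858_at of DEPTOR and 225915_at of CAB39L (0.0952% of all), and 0 higher (0.3% of all). This contrast uses the CD40L arrays from which both genes were picked, so nothing is read from it. CD40L arrays lay wholly below control arrays for 6 of the 29 probe sets and above them for 0, against 7.27% and 9.09% of all probe sets. LPS arrays lay below control arrays for 5 and above them for 1, against 6.38% and 7% of all, and CD40L arrays lay below LPS arrays for 6 and above them for 0, against 4.07% and 5.1% of all. Of these counts too, those that hold DEPTOR and CAB39L are description only. The order CD40L, LPS, control without overlap held for 5 of the 29 probe sets, those of DEPTOR and CAB39L named above and 226312_at of RICTOR, and for 0.357% of all probe sets. For DEPTOR and CAB39L the choice of genes set the place of CD40L in this order, so nothing is read from the count.

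**Figure D2:**
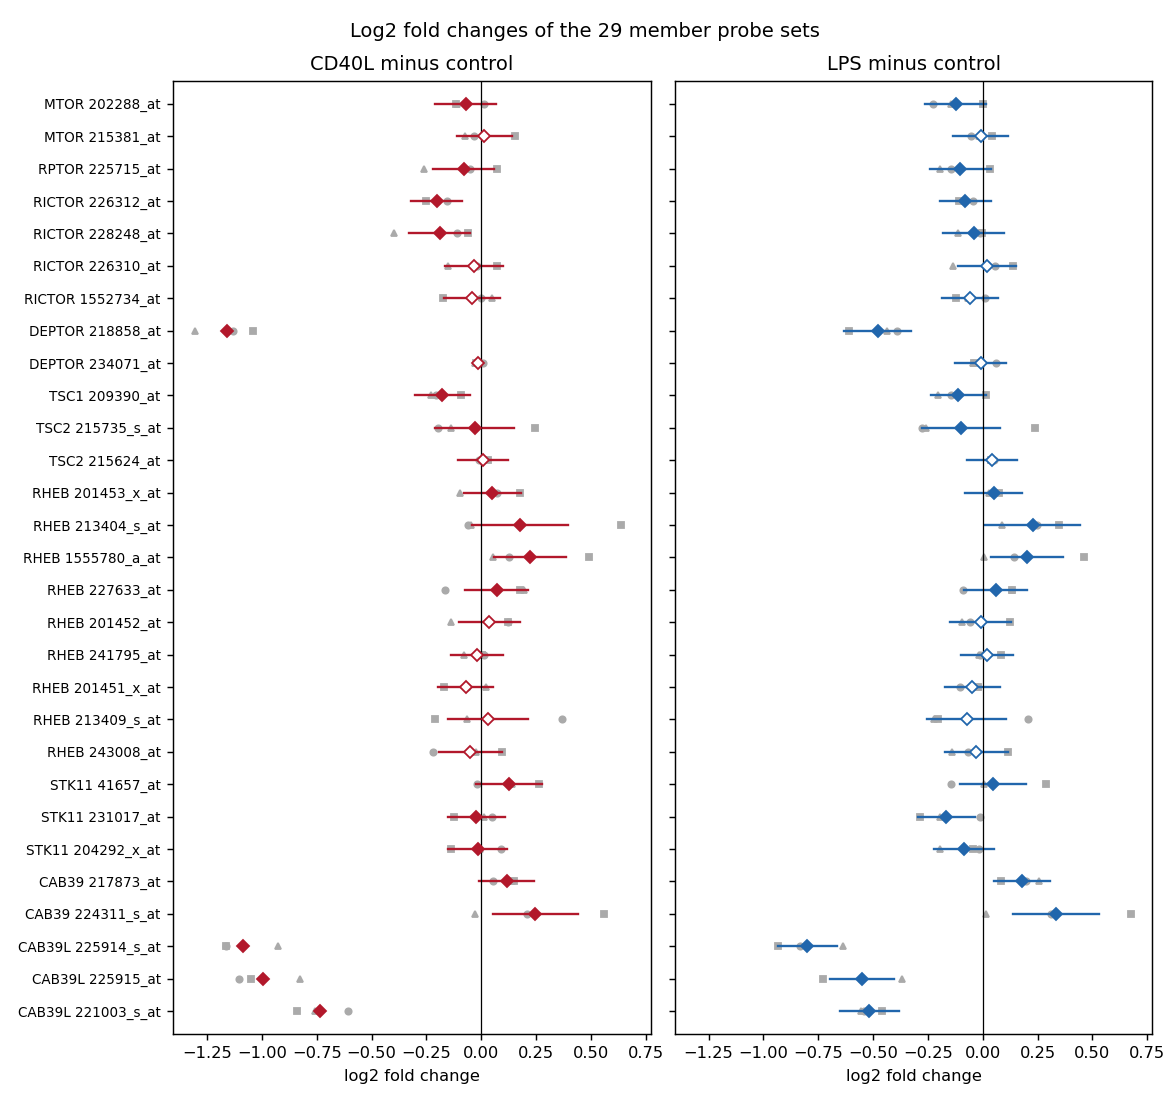
Log2 fold change of each of the 29 probe sets, CD40L minus control on the left and LPS minus control on the right, with diamonds for the fitted value (white where the probe set is dim), lines for its 95% interval and grey symbols for the 3 batches. DEPTOR and CAB39L carry no interval on the left because they were picked from that contrast, and they are the points from −1.16 to −0.74 there and from −0.80 to −0.48 on the right, apart from the dim DEPTOR probe set near 0.

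The genes whose levels ran most like DEPTOR over the 9 arrays, after subtraction of batch means, were PLEKHA2, an adaptor that binds phosphoinositides (r = 0.993), SYTL2, a RAB27 effector (0.992), TMED8 (0.991), SMAD1, a transducer of BMP signals (0.991), and RFC3, a clamp loader subunit (0.990). SMAD1 averaged 8.55 on CD40L arrays, 9.14 on LPS arrays and 9.74 on control arrays, a span like that of DEPTOR. RFC3 spanned less, with 11.7 on CD40L arrays, 11.8 on LPS arrays and 11.9 on control arrays. Most like CAB39L were NMRK1, a kinase of NAD synthesis (0.993), CD86, a costimulatory ligand (0.992), the DNA damage kinase ATM (0.991), PNPLA8, a phospholipase (0.987), and PNOC, a neuropeptide precursor (0.987). DEPTOR and CAB39L correlated with each other at 0.915. These are descriptions over 9 arrays of 3 conditions in 15145 candidate probe sets, and the points share the 3 conditions.

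Beyond the 10 genes, 102 genes of the same pathway were listed, of which 96 had a single-gene probe set, and each was read by its brightest one. The lists were made with earlier results of these data known, and the genes they are set against include dim ones. From the same arrays, the study had listed PIK3CD and RPS6KA1 among the genes most changed by CD40L, and RPS6KA1 and DDIT4 for LPS. Nothing is therefore read from the pathway counts, here or list by list. For the same reasons, the adjusted p-values of single pathway genes given below are no independent test of those genes. After CD40L 12 were higher and 2 lower (14.6%, against 7.95% of all genes, 5.03% higher and 2.92% lower), with a median change of 0.04 against 0.01 over all genes. After LPS 5 were higher and 2 lower (7.29%, against 3.1% of all genes, 1.62% higher and 1.48% lower), with a median of 0.02 against 0.00. Between the stimuli, PIK3CD and SGK1 were higher after CD40L than after LPS and 0 genes were lower, against 0.491% and 0.152% of all genes. Many of these calls rest on few arrays: 14 calls after CD40L fell to 7 without CD40L replicate 2, and 7 calls after LPS fell to 1 without LPS replicate 2. Many also depend on the batch term, without which there were 8 calls after CD40L and 1 after LPS. The calls of PIK3CD, INPP5D, RPS6KA1 and LAMTOR4 after CD40L held in all 20 alternatives, which use the same arrays.

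Genes upstream of AKT were higher after CD40L in 3 of 7 measured cases, and 0 were lower (42.9%, against 7.95% of all genes called). At an unadjusted p under 0.05 there were 4 of the 7 after CD40L (57.1%, against 19.9% of all genes) and 1 after LPS (14.3%, against 15%). PIK3CD, the PI3K catalytic subunit of lymphocytes, had 10.56, 10.52 and 10.67 on CD40L arrays, 10.03, 10.12 and 10.07 on LPS arrays and 9.73, 9.68 and 9.76 on control arrays. The 3 conditions were apart, in the reverse order of DEPTOR. PIK3CD rose by 0.86 ± 0.06 (SE) after CD40L (limma adjusted p = 2.2e-07) and by 0.35 ± 0.06 after LPS (adjusted p = 3.8e-03), and was 0.51 higher after CD40L than after LPS (adjusted p = 3.4e-04). The LPS call was lost without LPS replicate 2 (0.30, adjusted p = 0.053), and the last one without batch 3 (0.47, adjusted p = 0.076). INPP5D, the phosphatase SHIP1 that opposes PI3K, rose by 0.50 ± 0.09 after CD40L (adjusted p = 2.8e-03). PIK3R1, a regulatory PI3K subunit, rose by 0.24 ± 0.06, a call that the removal of 6 of the 9 single arrays ended (0.19 to 0.29 over the 9).

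Among the genes that act on DEPTOR, 1 of 7 was called after each stimulus (14.3%, against 7.95% of all genes after CD40L and 3.1% after LPS). RPS6KA1, the kinase RSK1, had 9.89, 9.86 and 9.50 on CD40L arrays, 9.48, 9.45 and 9.03 on LPS arrays and 9.07, 8.54 and 8.77 on control arrays. CD40L and control arrays were apart, and LPS replicate 3 overlapped control replicate 1. RPS6KA1 rose by 0.96 ± 0.10 after CD40L (adjusted p = 1.1e-05) and by 0.53 ± 0.10 after LPS (adjusted p = 7.2e-03). The LPS call was lost without LPS replicate 1 (0.55, adjusted p = 0.058) and without LPS replicate 2 (0.43, adjusted p = 0.087). It was also lost without a batch term (limma adjusted p = 0.18) and with batch as a random effect (0.12). BTRC, FBXW11, CUL1 and SKP1, which form the ubiquitin ligase that marks DEPTOR for degradation, the kinase CSNK1A1, which primes DEPTOR for it, and the deubiquitinase OTUB1 gave no call. With RPS6KA1 included, 4 of the 7 had an unadjusted p under 0.05 after CD40L (57.1%, against 19.9% of all genes). After LPS 1 did (14.3%, against 15%). The median change of the 7 was 0.17 after CD40L and 0.06 after LPS, against 0.01 and 0.00 over all genes.

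Of 19 substrates and effectors of mTOR, 5 were higher after CD40L and 2 after LPS, and 0 were lower. These calls were 26.3% and 10.5% of the list, against 7.95% and 3.1% of all genes. At an unadjusted p under 0.05 there were 5 after CD40L (26.3%, against 19.9% of all genes) and 4 after LPS (21.1%, against 15%). SGK1, an mTORC2 substrate, rose by 0.60 ± 0.11 (adjusted p = 3.5e-03), was 0.60 higher than after LPS (adjusted p = 0.023), and gave 0.00 (−0.24 to 0.24) after LPS. Its CD40L call was lost without CD40L replicate 3 (0.47, adjusted p = 0.064), and its call against LPS without any of 4 single arrays (0.47 to 0.73 over the 9). TFEB, a lysosomal transcription factor that mTORC1 restrains, rose by 0.43 after CD40L (adjusted p = 5.4e-03) and by 0.39 after LPS (adjusted p = 0.022). The TFEB call after CD40L was lost without CD40L replicate 2 (0.34, adjusted p = 0.066), and that after LPS without any of 5 single arrays (0.25 to 0.53 over the 9). Without a batch term the limma adjusted p of TFEB was 0.063 after CD40L and 0.19 after LPS. With batch as a random effect it was 0.13 after LPS. RPS6KB1, the S6 kinase, rose by 0.38 after CD40L (adjusted p = 3.1e-03), a call that no single array ended but that was lost without batch 1 (0.38, adjusted p = 0.065), and by 0.31 after LPS (adjusted p = 0.030), which 4 single arrays ended (0.26 to 0.38 over the 9). EEF2K, a brake on elongation, rose by 0.33 after CD40L (adjusted p = 6.4e-03), with 0.29 and adjusted p = 0.056 without CD40L replicate 2.

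DDIT4, the stress-induced inhibitor REDD1 that acts on mTORC1 through TSC2, had 8.95, 9.58 and 8.88 on CD40L arrays, 8.87, 9.43 and 8.74 on LPS arrays and 8.89, 10.61 and 10.03 on control arrays. Control replicate 1 lay among the stimulated arrays, and batch 1 gave 0.07 after CD40L and −0.02 after LPS. The fitted changes were −0.71 ± 0.17 after CD40L (adjusted p = 0.023) and −0.83 ± 0.17 after LPS (adjusted p = 0.018). Without control replicate 3 they were −0.48 (adjusted p = 0.14) and −0.60 (adjusted p = 0.093), and without control replicate 1 they were −1.10 (adjusted p = 2.1e-07) and −1.23 (adjusted p = 2.9e-07). The removal of 3 single arrays ended the CD40L call of DDIT4, and that of 4 ended its LPS call. Both calls also depended on the batch term. Without it the limma adjusted p of DDIT4 was 0.42 after CD40L and 0.47 after LPS. With batch as a random effect it was 0.33 and 0.35.

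Of 26 genes of lysosomal amino acid sensing, 1 was higher and 1 lower after each stimulus. LAMTOR4, a Ragulator subunit, had 10.05, 10.06 and 10.07 on CD40L arrays, 10.11, 10.01 and 10.28 on LPS arrays and 10.38, 10.37 and 10.48 on control arrays. Every stimulated array lay below every control array. LAMTOR4 fell by 0.35 ± 0.06 after CD40L (adjusted p = 1.8e-03) and by 0.28 ± 0.06 after LPS (adjusted p = 0.022), and the LPS call ended with the removal of any of 4 single arrays (−0.33 to −0.23 over the 9). RRAGC, a Rag GTPase, rose by 0.21 after CD40L (adjusted p = 0.042) and lost the call without any single array (0.16 to 0.24). SEH1L, a GATOR2 subunit, rose by 0.28 after LPS (adjusted p = 0.038) and lost the call without any of 7 single arrays (0.23 to 0.32 over the 9).

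Of 8 other partners of the mTOR complexes, TELO2, which helps assemble them, rose by 0.34 after CD40L (adjusted p = 5.4e-03) and PRR5, an mTORC2 subunit, by 0.26 (adjusted p = 0.025). TELO2 lost the call without CD40L replicate 2 (0.29, adjusted p = 0.056), and PRR5 lost it without any of 5 single arrays (0.20 to 0.34 over the 9). Without a batch term the limma adjusted p was 0.17 for TELO2 and 0.092 for PRR5. With batch as a random effect it was 0.11 and 0.065. The 2 calls after CD40L were 25% of these 8, against 7.95% of all genes. At an unadjusted p under 0.05 there were 4 of the 8 after CD40L (50%, against 19.9% of all genes). After LPS 0 of these 8 were called, with 2 at an unadjusted p under 0.05 (25%, against 15% of all genes). The 2 relatives of TSC and RHEB gave no call, with 1 at an unadjusted p under 0.05 after CD40L and 0 after LPS. Of the 20 measured genes of the LKB1 complex and its kinase substrates, 0 were called after CD40L and 0 after LPS, and an unadjusted p under 0.05 was found for 0 (against 19.9% of all genes) and for 4 of them (20%, against 15% of all genes). Their changes ran from −0.11 to 0.20 after CD40L and from −0.10 to 0.21 after LPS. The 5 other kinases that CAB39 proteins bind gave no call either, with 0 and 1 at an unadjusted p under 0.05.

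**Figure D3:**
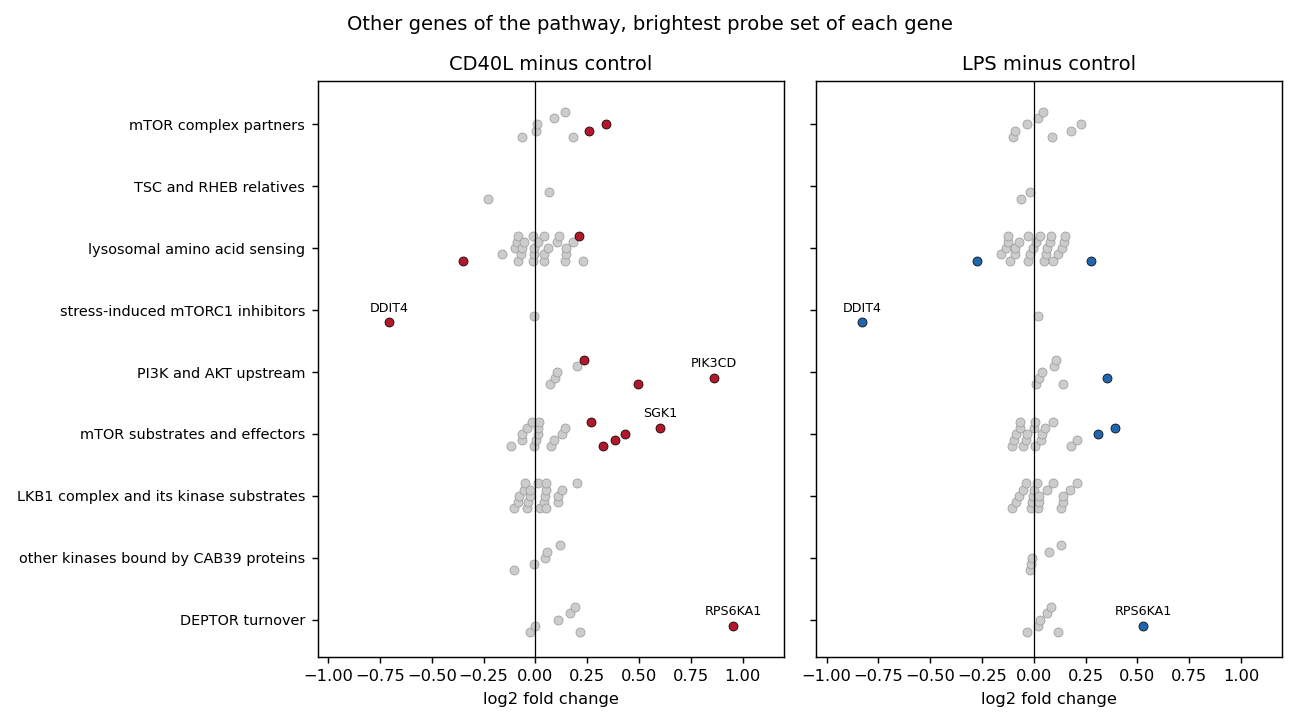
Log2 fold change of each measured pathway gene by its brightest probe set, CD40L minus control on the left and LPS minus control on the right, with 1 row for each gene list and coloured points for genes past the threshold. PIK3CD at 0.86 and RPS6KA1 at 0.96 stand highest after CD40L and DDIT4 at −0.71 lowest, while no point of the LKB1 row is coloured on either side.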

How the data were processed

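Gene expression of BL2 cells was measured on 9 arrays, 3 per condition. The authors corrected the background, normalised probe intensities by variance stabilisation, and used median polish to obtain 1 value per probe set; the deposited values, on a generalised log2 scale, were used as given. The 62 AFFX control probe sets were left out. Genes were named from the platform annotation, which gives 1 gene for 41091 probe sets, several for 1801 and none for 11721. The 3 contrasts were estimated by fitting a linear model with terms for condition and for batch to the 9 arrays together in limma 3.58.1 under R 4.3.3, with eBayes moderation and two-sided tests (4 residual and 11.63 prior degrees of freedom), and p-values were adjusted by the Benjamini-Hochberg method over 54613 probe sets, with a threshold of 0.05. The study's methods used a paired test and the labels number the batches, so samples of the same number were paired. As a check, the correlation of deviations from group means averaged 0.217 for arrays of 1 batch, from −0.181 for CD40L and control in batch 2 to 0.466. For arrays of different batches it averaged −0.109, from −0.486 to 0.382. Control replicate 2 correlated at −0.181 and −0.040 with the CD40L and LPS arrays of its own batch. With those of batch 3 it gave 0.382 and 0.323, and with those of batch 1 −0.271 and −0.366. The check therefore does not bear out the pairing of this control. The number of arrays limits the precision: an exact two-sided permutation test of 3 against 3 arrays that ignores batches cannot go below 0.1. A permutation test within the 3 batches has a higher floor. The members, the pathway lists and the naming rule (every member probe set, up to 4 called genes of largest change per list and contrast, and the 5 genes most like DEPTOR and CAB39L) were chosen with earlier results of these data known. The procedure was tested on simulated data. Alternatives were no batch term, batch as a random effect, only the compared groups, median centring, quantile normalization, AFFX probe sets kept, dim probe sets left out, an intensity trend with robust eBayes, the probe set of largest change, and each array and each batch left out. RefSeq promoter windows came from a table of GRCh38.p14.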

Additional observations from a re-analysis of the deposited data

How the results depend on the processing

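No called value changed its sign. DEPTOR and CAB39L kept their calls after LPS in all alternatives, and the counts of lower member probe sets stayed within 1.5 times for either stimulus. Without a replicate block, pathway calls were 8 after CD40L and 1 after LPS, and 1 member probe set was lower after CD40L than after LPS; no other count of member calls moved by over 1.5 times under this setting. With batch as a random effect 1 pathway gene was called after LPS, with an intensity trend and robust eBayes 4, and with only the compared groups 9 after CD40L. Quantile normalization gave 1 member probe set higher after LPS. Leaving out replicates gave 7 to 13 pathway calls after CD40L and 1 to 7 after LPS, 0 to 2 member probe sets higher after CD40L, 0 to 1 higher after LPS, and 0 to 3 lower after CD40L than after LPS. Over the single values and alternatives, 2336 kept their side of the threshold, 149 lost a call and 25 gained one. The causes were not tested. Dim probe sets limit what can be seen for 10 of the 29.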

Other observations

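In 15 of the 29 probe sets the batch means spanned more than the condition means. For TSC2 215735_s_at the span was 0.29 between batches and 0.10 between conditions, for RHEB 1555780_a_at 0.53 and 0.22, and for CAB39 224311_s_at 0.37 and 0.33. For DEPTOR 218858_at it was 0.10 between batches and 1.16 between conditions.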
